A study of Mus musculus with 4 samples.

Results

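Luminal cells of a mouse mammary tumor were compared with luminal cells of a hyperplastic mammary gland, separately within 2 cell classes that the authors named in both: Luminal Progenitor 1 and Mature Luminal. The cells were taken by the authors' class names from the wild type (WT) tumor library and the WT hyperplasia library. This gave 6053 cells of the 15445 annotated in the series and of the 8989 annotated in the WT pair. Luminal Progenitor 1 held 2722 hyperplasia cells, 71.5% of that library, and 2343 tumor cells, 45.2% of that library. Mature Luminal held 116 hyperplasia cells (3.05%) and 872 tumor cells (16.8%). All 4 libraries of the series came from mice carrying MMTV-PyMT, in which a mouse mammary tumor virus promoter drives the polyoma middle T antigen in mammary epithelium. The WT animals were labelled wild type and the other pair PKA activated, and the sources used here do not give the allele behind that activation. Hyperplastic glands (fat pads 3 and 4) were taken at 8 to 9 weeks and digested with collagenase A and hyaluronidase, then trypsin, then dispase. Tumors were taken at 16 to 20 weeks per the sample labels, or at 22 weeks per the series design. They were cut up and then digested in a pair of shorter incubations with collagenase and hyaluronidase, and the labels name no trypsin or dispase step for them. The stage, the age and the digestion therefore cannot be told apart. Each group was 1 library of FACS sorted cells on the 10x 3' v2 chemistry, and the sources used here give neither the gate nor the number of mice behind a library. No difference below has a replicate check and none was tested. The 95% intervals cover counting error only.

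Luminal progenitors of the mammary gland are hormone receptor low cells that give rise to milk-secreting alveolar cells, and they are regarded as a source of many aggressive mammary tumors. Mature luminal cells carry the estrogen, progesterone and prolactin receptors and signal to their neighbours with secreted factors. Immediate early genes, such as Fos, Jun and Egr1, are transcribed within minutes of a stimulus without new protein synthesis, and enzymatic dissociation of a tissue is a known stimulus. They were for that reason listed and counted apart from all other genes.

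The UMIs (unique molecular identifiers, each standing for 1 captured RNA molecule) were summed over the cells of a class. The sums over the 22572 genes with a row in both WT files were 7852190 in hyperplasia and 10488175 in tumor for Luminal Progenitor 1, and 383942 and 4874679 for Mature Luminal. Levels are given as CPM, the counts per 1000000 UMIs of these sums. The median cell held 2690 UMIs in hyperplasia and 4143 in tumor for Luminal Progenitor 1, and 3177.5 and 5492 for Mature Luminal. A gene counted as measured in a class when it reached 50 CPM in the higher library, and as higher or lower past the fold when the log2 ratio of (CPM + 10), tumor against hyperplasia, was at least 1 in size, which is 2-fold. The 12 barcodes that the WT libraries shared within these classes were kept.

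The class names were checked against the markers the authors had used to assign them, so these levels describe the assignment and are no finding. In Luminal Progenitor 1, Cd14 was at 1279 CPM in hyperplasia and 1018 in tumor, Kit at 63.7 and 105, and Lalba at 1804 and 994. Cd14 was highest in this class in both libraries, but Kit and Lalba did not single it out. Lalba was at 1752 CPM in Luminal Progenitor 2 of hyperplasia. In EMT-like cells of tumor, Kit was at 146 CPM and Lalba at 1609. In Mature Luminal, Prlr was at 2581 and 1740 CPM, Gpx3 at 2550 and 1926, Foxa1 at 177 and 435, Pgr at 133 and 153, and Esr1 at 107 and 58.7. None of the 10 genes that led each class over the rest of its own library was a marker of another class. Only 1 or 0 of those 10 was an own marker, and the leading genes differed between stages: Calca, Gpx3 and Plac8 led Mature Luminal in hyperplasia, and Fgb, Upk3a and Cited1 led it in tumor. Genes of basal and myoepithelial cells also moved in Luminal Progenitor 1 (over all genes measured there, 13.6% were higher and 10.4% lower). Of 4 measured, Krt14 (96.9 CPM in hyperplasia and 327 in tumor), a marker of the Basal and Lumino-Basal classes, Krt17 (46.0 and 124) and Cxcl14 (2.55 and 92.3) were higher past the fold and Lgals7 (1438 and 531) was lower, while Krt5 had 4 and 1 UMIs. Non-epithelial markers ranged from 0 to the 901 CPM of Dcn. The macrophage list (9 genes) summed to between 9.64 and 28.7 CPM with Adgre1 at 0 in all 4 class sums. The fibroblast list (6 genes) summed to 4.71 CPM in hyperplasia and 18.3 in tumor for Luminal Progenitor 1, and to 609 and 902 for Mature Luminal, where Dcn alone gave 599 and 901 and Lum was at 0. S100a8 of the neutrophil list was at 350 CPM in hyperplasia and 16.0 in tumor for Luminal Progenitor 1, while S100a9 was at 0 in all 4 class sums. Hba-a1, a haemoglobin gene, was at 427 CPM in the 116 Mature Luminal cells of hyperplasia and 14.4 in tumor. The part of these transcripts in the results below was not tested.

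Immediate early genes were higher in tumor in both classes. Fos, which encodes an AP-1 subunit, was at 248 CPM (95% interval 237 to 259) in Luminal Progenitor 1 of hyperplasia and at 9528 (9469 to 9587) in tumor, and in Mature Luminal at 195 and 5919. Atf3, a stress-induced repressor of the ATF/CREB family, was at 99.2 and 2708 CPM in Luminal Progenitor 1 and at 72.9 and 2558 in Mature Luminal. Dusp1, a phosphatase that switches off MAP kinases, was at 104 and 3022 CPM, and at 10.4 and 819. Klf2, a Kruppel-like transcription factor, was at 1.53 and 1324 CPM in Luminal Progenitor 1, whereas in Mature Luminal it had 0 UMIs in hyperplasia and was at 1023 CPM in tumor. The tumor value was above the hyperplasia value for each of these 4 genes in both classes. Their promoters are shown because these genes were higher together and because Fos, Atf3 and Dusp1 are textbook targets of the cAMP response element (CRE), the site bound by CREB and ATF proteins. The sequences are the 250 bases before each start in RefSeq, build GRCm38.p6, read 5′ to 3′ on the strand of the gene. The intervals are chr12:85473640-85473889 (plus strand) for Fos, chr1:191183334-191183583 (minus strand) for Atf3, chr17:26508473-26508722 (minus strand) for Dusp1 and chr8:72318812-72319061 (plus strand) for Klf2. Capitals mark a match to the CRE TGACGTCA or to its shorter form TGACGT, on either strand.
Fos: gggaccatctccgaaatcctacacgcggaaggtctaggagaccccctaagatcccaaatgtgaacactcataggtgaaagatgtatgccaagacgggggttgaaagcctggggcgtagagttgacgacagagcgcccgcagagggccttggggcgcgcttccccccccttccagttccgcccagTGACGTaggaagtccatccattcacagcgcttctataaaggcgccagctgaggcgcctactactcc
Atf3: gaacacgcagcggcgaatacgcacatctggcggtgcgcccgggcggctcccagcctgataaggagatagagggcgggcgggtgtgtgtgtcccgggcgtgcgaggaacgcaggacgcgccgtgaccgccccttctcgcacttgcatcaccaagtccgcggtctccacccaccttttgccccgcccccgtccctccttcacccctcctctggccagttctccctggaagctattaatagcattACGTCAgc
Dusp1: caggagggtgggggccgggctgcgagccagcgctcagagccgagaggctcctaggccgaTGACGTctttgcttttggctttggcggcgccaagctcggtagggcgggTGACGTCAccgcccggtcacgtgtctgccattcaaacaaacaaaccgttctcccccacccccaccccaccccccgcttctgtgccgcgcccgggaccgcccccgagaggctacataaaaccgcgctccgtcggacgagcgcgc
Klf2: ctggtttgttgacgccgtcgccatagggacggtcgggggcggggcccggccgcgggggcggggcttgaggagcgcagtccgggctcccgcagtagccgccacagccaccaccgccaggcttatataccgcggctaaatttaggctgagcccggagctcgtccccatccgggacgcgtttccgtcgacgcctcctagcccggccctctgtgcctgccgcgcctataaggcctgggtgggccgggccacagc
The match in Fos began 66 bases before the start and that in Atf3, read as ACGTCA, 8 bases before it. Dusp1 held the whole palindrome 143 bases before its start and the shorter form 191 bases before it. The Klf2 window held none of the letters searched.

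Of the 41 listed immediate early genes, 29 had a promoter in the table. The letters TGACGT stood in 7 of these (24.1%; Fos, Atf3, Dusp1, Btg1, Btg2, Nr4a3 and Ppp1r15a), against 6.47% of all 32851 promoters of the same length. The whole palindrome TGACGTCA, which contains the shorter form, stood in 3 of 29 (10.3%; Btg2, Dusp1 and Ppp1r15a) against 1.55%. The AP-1 site TGACTCA stood in 0 of 29 against 4.46%, and the CArG box, the site of serum response factor, in 1 (Zfp36, 3.45%) against 1.47%. Both strands were searched for each. Egr1, Cyr61 and Ctgf were among the listed genes that had no promoter to search. Sites farther from the start than the searched window were not counted for any gene. These shares therefore do not show how common each site is near the 41 genes, and a low share is no evidence that a site is absent. The 29 were taken by list whatever their levels. Nr4a3, for example, was at 2.60 to 97.1 CPM over the hyperplasia classes and 1.23 to 14.6 over the tumor classes. Each listed gene gave 1 promoter, while the full set was not reduced to 1 per gene, so the shares are not fully alike. A match describes the letters and shows no binding.

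In Luminal Progenitor 1, 34 of the 41 immediate early genes were measured. Of these, 24 were higher past the fold and 1 was lower, with a median log2 ratio of 2.55, against 13.6% higher and 10.4% lower and a median of 0.10 over all 3968 genes measured. In Mature Luminal, 31 were measured, 25 were higher and 0 lower, with a median of 2.13, against 13.7% higher and 11.1% lower and a median of 0.11 over all 4247. Among the transcription factors, Fosb was at 54.9 CPM in hyperplasia and 2177 in tumor in Luminal Progenitor 1, Jun at 481 and 4720, and Egr1 at 53.7 and 1335. The orphan nuclear receptor Nr4a1 was at 35.3 and 1097 CPM, and Klf4 at 19.1 and 495. Among the feedback genes, Zfp36, which encodes an RNA-decay protein, was at 214 and 1720 CPM, and Btg2, an antiproliferative gene, at 269 and 3491. All of these were also higher in tumor in Mature Luminal, with Jun at 229 and 3802 CPM and Btg2 at 276 and 2003. Fosl1, the FRA-1 subunit of AP-1, went the other way in Luminal Progenitor 1, with 247 CPM in hyperplasia and 32.1 in tumor. Myc was at 52.9 and 44.0 CPM there, and Fosl2 at 222 and 143.

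**Figure D1:**
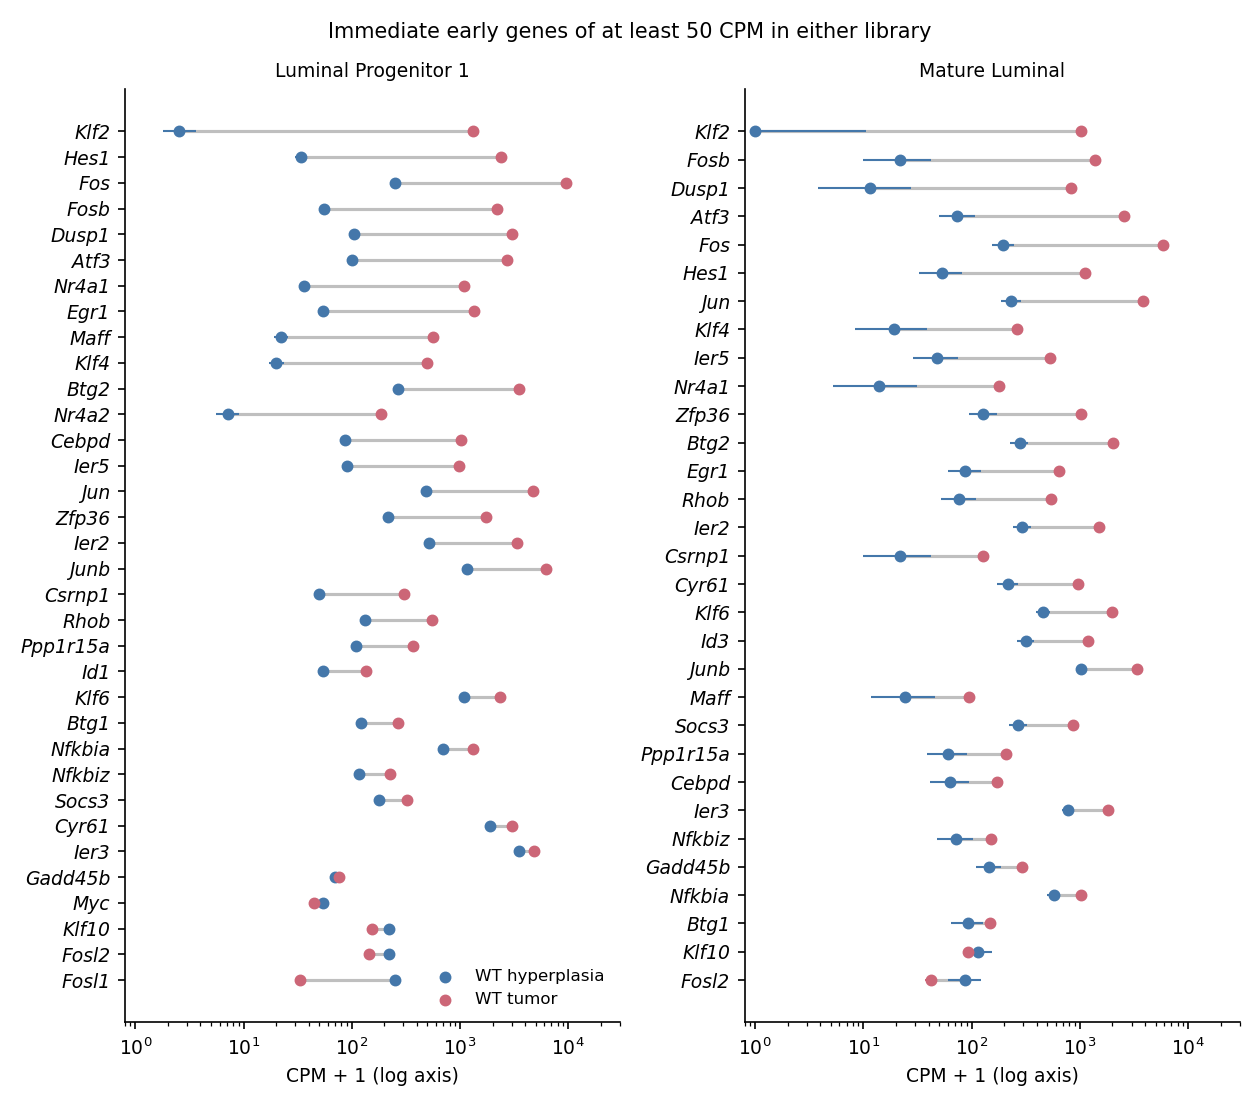
CPM plus 1 (log axis) of the immediate early genes measured in Luminal Progenitor 1 (34 genes) and Mature Luminal (31 genes), in WT hyperplasia and WT tumor, ordered by their log2 ratio. Thin bars are exact Poisson 95% intervals, often narrower than the points. The tumor point lies to the right for nearly all genes, from Klf2 at the top, and Fosl1 at the foot of the first panel is at 247 CPM in hyperplasia and 32.1 in tumor.

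The immediate early genes together made up 1.23% of UMIs in Luminal Progenitor 1 of hyperplasia and 6.05% in tumor, and 0.591% and 3.59% in Mature Luminal. The other classes of each library showed the same split between stages. In hyperplasia, Basal cells were at 1.34% and Luminal Progenitor 2 at 1.07%, and in tumor, EMT-like cells were at 2.97% and Lumino-Basal cells at 4.00%, so no tumor class overlapped a hyperplasia class. In the PKA pair, which was digested in the same 2 ways, 27 of 35 measured immediate early genes were higher past the fold in Luminal Progenitor 1 of tumor, and 27 of 31 in Mature Luminal. Over all genes measured in that pair, 11.4% and 12.2% were higher. Heat shock genes, which encode chaperones induced by protein damage, differed less. In Luminal Progenitor 1, 6 of 12 measured were higher and 0 lower, among them Hspa1a (15.4 CPM in hyperplasia, 243 in tumor), Hspb1 (330 and 1020) and Dnajb1 (109 and 634). In Mature Luminal, 5 of 14 were higher and 1, Hspe1, was lower. Over all genes measured in the WT pair, 13.6% were higher and 10.4% lower in Luminal Progenitor 1, and 13.7% and 11.1% in Mature Luminal. The part of the digestion in these values was not tested.

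In Luminal Progenitor 1, 541 of the 3968 genes measured (13.6%) were higher past the fold in tumor and 411 (10.4%) were lower. Without immediate early and heat shock genes, there were 511 and 410. Library scaling set much of this split: with TMM factors, which moved all log2 ratios by -0.22 in Luminal Progenitor 1 and by 0.16 in Mature Luminal, 401 were higher and 584 lower. Of the 12 genes named for the highest ratios, the first was Tob1, an antiproliferative gene of the BTG/TOB family on chromosome 11 (94211454 to 94215495, plus strand, GRCm38). It was at 12.5 CPM (10.1 to 15.2) in hyperplasia and 1243 (1222 to 1264) in tumor, 99.6-fold higher, with a log2 ratio of 6.64 (6.35 to 6.94). The antiproliferative gene was followed by genes that regulate transcription. Cited4, a CBP/p300-binding coactivator, was at 9.55 and 684 CPM, Pnrc1, a nuclear receptor coactivator, at 40.9 and 1212, and Cebpb, a factor needed for alveolar development of the mammary gland, at 33.2 and 823. Hey1, a repressor and direct target of Notch signaling, was at 23.8 and 575 CPM.

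The remaining 7 were mostly genes of secretion, transport and signaling. Aqp5, a water channel of exocrine glands, was at 58.8 CPM in hyperplasia and 1287 in tumor, and Kcne3, a potassium channel subunit, at 6.37 and 238. Nrtn, the GDNF family ligand neurturin, was at 3.31 and 208 CPM, and Ptx3, a secreted pentraxin of innate immunity, at 11.5 and 375. Rasd1, a small G protein induced by glucocorticoid, was at 8.79 and 357 CPM, and Pgp, the phosphoglycolate phosphatase, at 68.6 and 991. C2cd4b had 1 UMI in hyperplasia and was at 193 CPM in tumor, a log2 ratio of 10.6 with an interval of 8.08 to 15.9. All 12 were higher in tumor, and the intervals of the hyperplasia and tumor levels did not overlap for any of them. Both follow largely from the choice of these genes by their ratios. The counts of Cebpb, C2cd4b and Kcne3 may include reads of an overlapping gene model, since the sources used here do not state the strand setting of the counting.

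These genes differed in the share of cells that had at least 1 UMI, after each cell was thinned to 1500 UMIs (2453 of the 2722 hyperplasia cells and 2293 of the 2343 tumor cells were deep enough). Tob1 was seen in 1.96% of thinned hyperplasia cells (3.45% unthinned) and 73.0% of tumor cells (89.8% unthinned). Pnrc1 was seen in 152 of 2453 thinned hyperplasia cells (10.3% of cells unthinned) and in 75.2% of thinned tumor cells (92.8% unthinned). Aqp5 was seen in 7.17% and 67.5% of thinned cells, Cited4 in 1.18% and 52.5%, and Hey1 in 3.30% and 47.2%. The 12 genes differed in how evenly tumor cells held them. The 10% of cells with most Tob1 UMIs held 28.8% of them, whereas C2cd4b was seen in 23.9% of unthinned tumor cells with 78.9% of its UMIs in the top 10%, Kcne3 in 20.0% of thinned cells with 65.6%, and Rasd1 in 27.9% of thinned cells with 58.2%. Nrtn was seen in 25.1% of thinned tumor cells. In the other classes Tob1 was seen in 3.25% of Basal and 4.82% of Luminal Progenitor 2 cells of hyperplasia, and in 60.9% of EMT-like and 59.1% of Lumino-Basal cells of tumor.

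**Figure D2:**
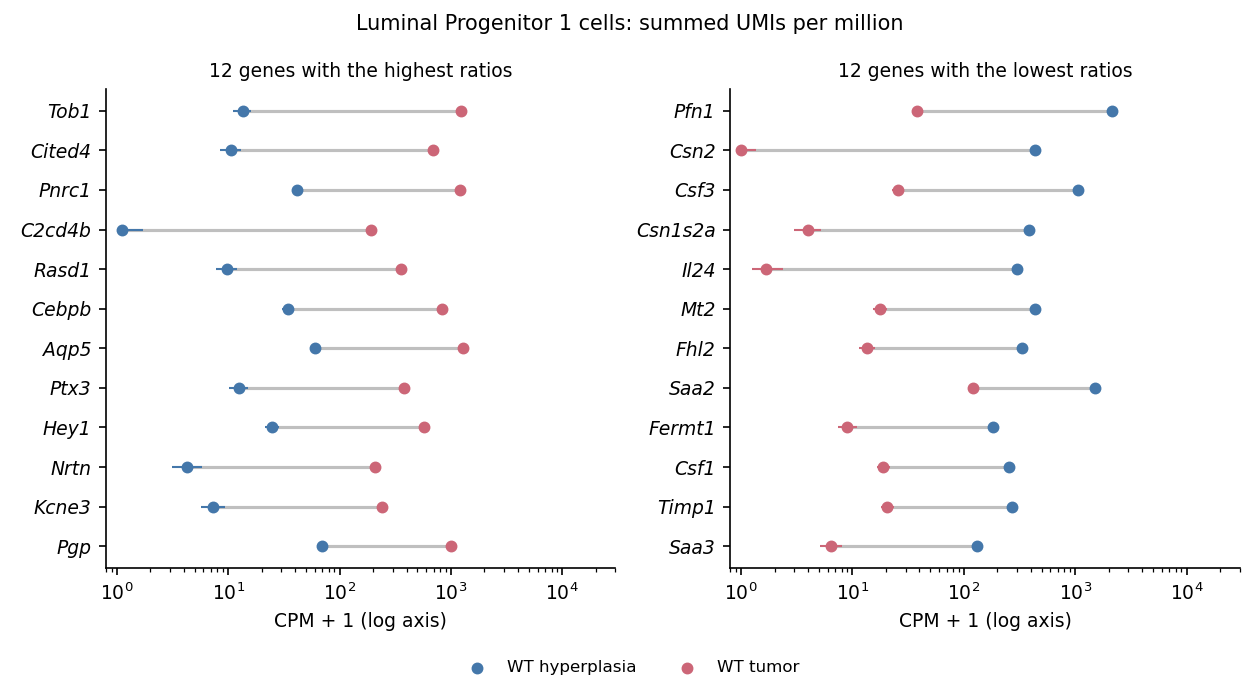
CPM plus 1 (log axis) in Luminal Progenitor 1 cells of WT hyperplasia and WT tumor, for the 12 genes with the highest and the 12 with the lowest log2 ratios of (CPM + 10). Bars are exact Poisson 95% intervals. The genes run from Tob1 (12.5 and 1243 CPM) to Pfn1 (2133 and 36.7 CPM). They were chosen by these ratios, so the gap between the points of the 2 libraries follows from the choice.

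Among the 12 genes with the lowest ratios in Luminal Progenitor 1, cytokines and secreted inflammatory proteins were the largest group. Csf3, the granulocyte growth factor G-CSF, was at 1055 CPM in hyperplasia and 24.5 in tumor, 43.0-fold lower, and Csf1, the macrophage growth factor, at 256 and 18.0. Il24, a cytokine of the IL-10 family, had 2356 UMIs in hyperplasia and 7 in tumor, 450-fold lower (log2 ratio -8.81, -10.1 to -7.77). The acute phase genes Saa2 and Saa3 were at 1512 and 119 CPM, and at 130 and 5.43. Timp1, an inhibitor of matrix proteases, was at 270 and 19.5 CPM. The milk proteins were next. Csn2, beta-casein, was at 436 CPM in hyperplasia and had 0 UMIs in tumor, at least 1524-fold lower against the limit of 3 counts in the tumor sum. Csn1s2a, another casein, was at 385 and 2.96 CPM.

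The other 4 of the 12 were Fhl2, a LIM domain cofactor (332 and 12.5 CPM), Fermt1, the integrin activator kindlin-1 (183 and 8.01), the metallothionein gene Mt2 (434 and 16.6) and Pfn1, which had the lowest ratio of all 12 on the (CPM + 10) scale (-5.52, next to -5.48 for Csn2). Pfn1 encodes profilin, an actin-binding protein of nearly all cells, and lies on chromosome 11 (70651850 to 70654644, minus strand). It was at 2133 CPM in hyperplasia and 36.7 (33.1 to 40.6) in tumor, 58.1-fold lower. It was seen in 94.7% of thinned hyperplasia cells and 5.54% of thinned tumor cells. None of the 60-base words in the last 400 bases of Pfn1 occurs in another gene of the annotation. Pfn1 was at 29.9 to 46.6 CPM in all 4 WT tumor classes and at 1154 to 2428 in all 4 WT hyperplasia classes, and the PKA pair gave 2063 and 34.7 in this class. The sources used here do not state whether both stages were counted with the same gene models, and the part of the counting in the Pfn1 values was not tested. Csf3 was less even in hyperplasia, where 25.4% of thinned cells had a UMI and the top 10% of cells held 79.5% of UMIs, against 2.40% of thinned tumor cells. For comparison, 11.4% of thinned Basal cells of hyperplasia had a UMI of Csf3.

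Gene lists are given beside the single genes. They hold some genes already named by their ratios, among them Csn2, Csf3 and Saa2. Their counts therefore partly repeat that choice. The caseins did not share 1 direction in Luminal Progenitor 1. Csn3, kappa-casein, was at 14878 CPM in hyperplasia and 35920 in tumor, while Csn1s1 was at 768 and 159, and of 11 measured milk genes 3 were higher and 5 lower, with a median log2 ratio of -0.88. Spp1, osteopontin, was at 2479 and 5900 CPM, and Btn1a1, a milk fat globule protein, at 150 and 18.0. The acute phase and antimicrobial list was split as well, with 2 of 12 higher and 4 lower. Saa1 was at 3461 and 424 CPM and the complement gene C3 at 161 and 9.34, whereas Ltf, lactoferrin, was at 294 and 1377 and Lcn2 at 19184 and 16169. Of 7 chemokine and cytokine genes, 4 were lower and 0 higher, with the neutrophil chemokine Cxcl1 at 397 and 89.5 CPM. Of 10 NF-kB response genes, 4 were lower and 0 higher, with Nfkb1 at 182 and 70.6 CPM. Nfkbia, also an immediate early gene, was at 690 and 1329. These list counts stand beside 13.6% higher and 10.4% lower over all genes measured.

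Of 12 measured epithelial junction genes, 7 were lower past the fold and 0 higher, with a median of -1.32, against 10.4% lower and 13.6% higher over all genes measured. Cdh1, E-cadherin, was at 366 CPM in hyperplasia and 125 in tumor, Cldn4, a tight junction claudin, at 2221 and 686, Dsg2, a desmosomal cadherin, at 88.1 and 18.2, and Gjb2, the gap junction protein connexin 26, at 347 and 96.5. Cldn3, another claudin, was at 1232 and 2271 CPM, within the fold. Of 8 S100 genes, 6 were lower, with S100a6 at 2849 and 623 CPM and S100a10 at 2092 and 453. The 6 include S100a8, given above as a gene of the neutrophil list. Of 21 actin cytoskeleton genes, 5 were lower, Pfn1 among them, with Actb at 7322 and 2781 CPM and Msn, moesin, at 364 and 73.9.

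Genes higher in Luminal Progenitor 1 of tumor included regulators of several pathways. Of 3 measured Notch genes, Hes1 (32.9 CPM in hyperplasia and 2395 in tumor, also an immediate early gene) and Hey1 were higher, while the receptor Notch2 was lower (140 and 41.2). Of 6 genes of ERK feedback, 2 were higher and 0 lower: Dusp6, a phosphatase of ERK, was at 62.9 and 641 CPM and Etv1, a PEA3 family factor, at 18.2 and 121. The unfolded protein response list was divided, with 6 of 19 higher and 3 lower, beside 13.6% higher and 10.4% lower over all genes measured. Hspa5, the chaperone BiP and also a gene of the heat shock list, was at 312 and 1123 CPM. Xbp1 was at 435 and 1607, and Dnajb9 at 26.6 and 216. The genes Atf4 (823 and 334), Trib3 (183 and 19.2) and Chac1 (77.9 and 3.24), which respond to amino acid shortage, were lower. Of 15 luminal progenitor genes, 4 were higher, among them the ETS factor Ehf (75.0 and 522), and 2 were lower, Plet1 (8531 and 2845) and Aldh1a3 (196 and 42.2), a lower share near that over all genes. Of the 4 genes of the EMT-like marker list, only Sox4 was measured, at 63.3 and 686 CPM. Below the minimum of 50 CPM were Vim (5.22 and 21.7), Trim29 (2.29 and 1.72) and Cldn6 (0 and 0.381). In the EMT-like class of tumor, Sox4 was at 245 CPM. Of 10 fatty acid and cholesterol synthesis genes, 3 were higher and 1 lower, with a median of -0.39. Srebf1, which drives fatty acid synthesis, had the highest ratio of that list (54.3 and 418 CPM). Of 14 glycolysis and hypoxia genes, 4 were higher and 3 lower, with a median of 0.49. Slc2a1, the glucose transporter GLUT1, had the lowest ratio there (334 and 82.6 CPM).

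In Mature Luminal, 580 of 4247 genes measured (13.7%) were higher past the fold in tumor and 472 (11.1%) lower. Without immediate early and heat shock genes, there were 550 and 471. The split again moved with scaling, to 735 higher and 382 lower with TMM factors, and to 533 higher and 659 lower when mitochondrial, ribosomal protein and milk genes were left out of the totals. The hyperplasia side was 116 cells, in which 3 UMIs are 7.81 CPM. The highest ratio belonged to Upk3a, a uroplakin best known from the surface of the bladder (chromosome 15, 85017141 to 85022547, plus strand). It had 1 UMI in hyperplasia, 2.60 CPM (0.0659 to 14.5), and was at 1756 CPM (1719 to 1793) in tumor, a log2 ratio of 9.40 with an interval of 6.92 to 14.7. The fibrinogen chain genes Fgb and Fgg, known as liver products, were at 20.8 and 1898 CPM and at 28.7 and 1082. Ly6d, a surface antigen of the Ly6 family, was at 201 CPM (158 to 251) in hyperplasia and 4964 in tumor, 24.8-fold higher.

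Keratins, a cytokine and binding proteins completed the group of 12. Krt15, a basal keratin, had 2 UMIs in hyperplasia (5.21 CPM) and was at 505 CPM in tumor, and Krt4, a keratin of stratified mucosa, had 1 UMI (2.60) and was at 273. Il33, an alarmin cytokine, had 5 UMIs in hyperplasia and was at 400 CPM in tumor. Ido1, an enzyme of tryptophan breakdown, Crabp1, a retinoic acid binding protein, and Tmem238 each had 1 UMI in hyperplasia and were at 468, 298 and 175 CPM in tumor. Cited4 had 0 UMIs in hyperplasia and 156 CPM in tumor, at least 20.0-fold higher against the limit of 3 counts in the hyperplasia sum. Aqp5 was at 49.5 and 839 CPM. All 12 were higher in tumor, which follows from their choice by these ratios. For the genes with 1 or 2 UMIs in hyperplasia, the size of the ratio is set by very few molecules.

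These transcripts were not spread evenly over the 872 tumor cells. After thinning to 1500 UMIs (861 tumor and 98 hyperplasia cells were deep enough), Upk3a was seen in 0 of 98 hyperplasia cells and in 28.0% of tumor cells. By the limit of 3 counts, 0 of 98 allows up to 3.06% of thinned cells with a UMI, and by the exact interval up to 3.69%. Unthinned, 1 of the 116 hyperplasia cells had a UMI of Upk3a and 2 had one of Krt15. The 10% of tumor cells with most of it held 78.4% of its UMIs. Fgb was seen in 4.08% and 32.5%, with 74.4% of UMIs in the top 10%, and Krt15 in 0 of 98 and 5.92%, with 99.9% of UMIs in the top 10%. Ly6d was broader, in 15.3% of hyperplasia and 87.9% of tumor cells, with 32.0% of UMIs in the top 10%. Unthinned, the tumor shares were 37.5% for Upk3a, 41.6% for Fgb, 10.2% for Krt15 and 94.5% for Ly6d. In thinned EMT-like and Lumino-Basal cells of the same tumor, Upk3a was seen in 0.691% and 0.853% and Fgb in 1.10% and 0.768%.

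**Figure D3:**
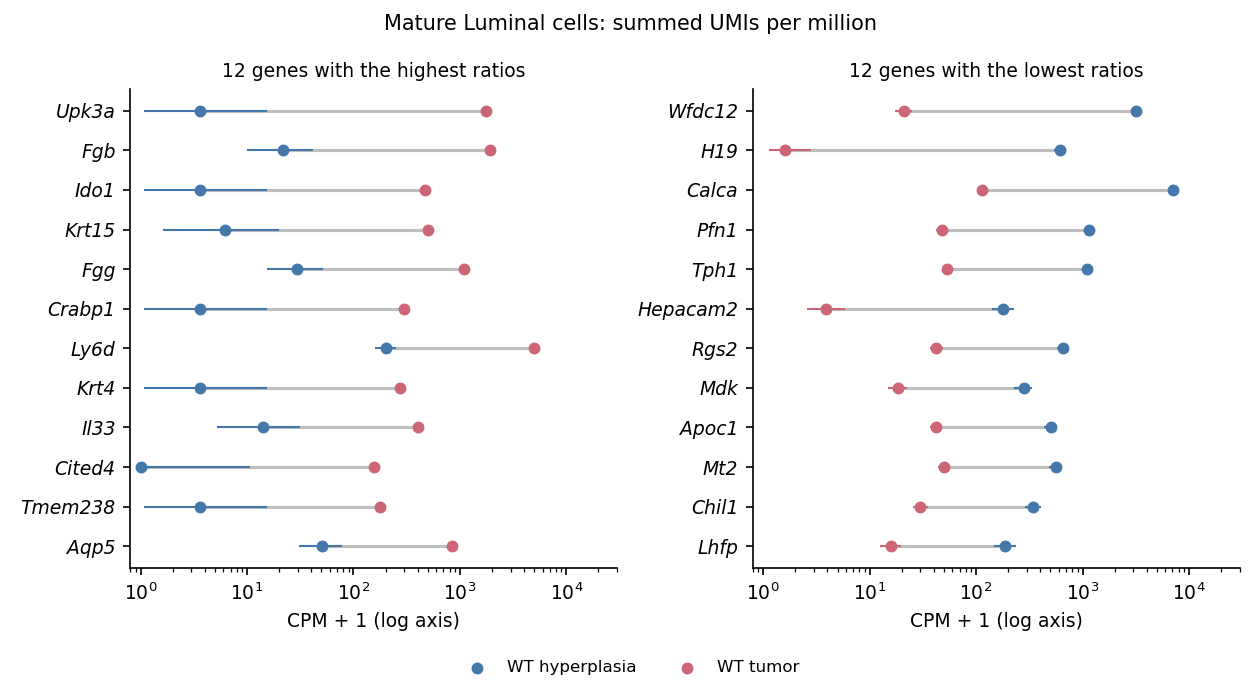
CPM plus 1 (log axis) in Mature Luminal cells of WT hyperplasia (116 cells) and WT tumor (872 cells), for the 12 genes with the highest and the 12 with the lowest log2 ratios of (CPM + 10). Bars are exact Poisson 95% intervals. They are wide in hyperplasia where 1 UMI was counted, as for Upk3a, and narrow for Calca (7051 and 112 CPM).

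Among the 12 lowest ratios in Mature Luminal, genes that also led the hyperplasia class were prominent. Calca, which encodes calcitonin and the neuropeptide CGRP (chromosome 7, 114631478 to 114636357, minus strand), was at 7051 CPM (6787 to 7321) in hyperplasia and 112 (103 to 122) in tumor, 62.9-fold lower. Wfdc12, a WAP-domain protease inhibitor (chromosome 2, 164189231 to 164190608, minus strand), was at 3185 and 19.9 CPM. Tph1, the enzyme that starts serotonin synthesis, was at 1104 and 52.7 CPM, and H19, an imprinted noncoding RNA, was at 620 CPM in hyperplasia and had 3 UMIs in tumor (log2 ratio -9.98, -12.3 to -8.41). Calca was seen in 86.7% of thinned hyperplasia cells and 3.95% of tumor cells, Wfdc12 in 53.1% and 1.51%, and Tph1 in 65.3% and 4.88%. In thinned Luminal Progenitor 2 cells of hyperplasia, Calca was seen in 0.536% and Wfdc12 in 0.714%.

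The others were signaling, lipid and structural genes. Rgs2, a regulator of G protein signaling, was at 649 CPM in hyperplasia and 41.4 in tumor, and Apoc1, an apolipoprotein, at 503 and 41.0. The growth factor midkine (Mdk) had 107 UMIs in hyperplasia and was at 17.4 CPM in tumor, 16.0-fold lower. Chil1, a chitinase-like secreted protein, was at 341 and 28.9 CPM, Hepacam2, an adhesion protein of the immunoglobulin family, at 180 and 2.87, and Lhfp at 188 and 14.8. Pfn1 was at 1154 and 46.6 CPM and Mt2 at 557 and 48.6. All 12 were lower in tumor with intervals that did not overlap, which follows largely from their choice by these ratios. Wfdc12, H19, Mt2 and Lhfp overlap another gene model.

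Antigen presentation and luminal keratin lists held more higher than lower genes in Mature Luminal of tumor. Of 10 antigen presentation genes, 7 were higher past the fold and 1 lower, with a median of 1.31, against 13.7% higher and 11.1% lower over all genes. The peptide transporter genes Tap1 and Tap2 were at 26.0 and 78.8 CPM and at 70.3 and 397, the immunoproteasome genes Psmb8 and Psmb9 at 357 and 1116 and at 70.3 and 289, and the class I gene H2-D1 at 849 and 2124. B2m, the light chain of class I molecules, went the other way, at 7431 CPM in hyperplasia and 3301 in tumor, and the summed level of the list was 10098 and 9475 CPM. Of 9 interferon response genes, 1 was higher and 2 were lower, with Ifitm3 at 2355 and 728 CPM. Of 10 luminal keratin and surface genes, 4 were higher, 0 lower and 6 within the fold, with Krt19 at 3550 and 17358 CPM, Krt8 at 1451 and 4416, Krt7 at 797 and 2518, and Epcam at 925 and 2026.

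The mature luminal list itself was split, with 4 of 17 higher, 3 lower and a median of 0.19, beside 13.7% higher and 11.1% lower and a median of 0.11 over all genes measured. Ly6d and Calca, already named by their ratios, are counted in it. Gata3, the lineage factor of luminal cells, was at 370 CPM in hyperplasia and 1267 in tumor, and Ly6a, the antigen Sca-1, at 1057 and 4486. Tbx3, a T-box repressor of the hormone receptor lineage, was at 133 and 47.0 CPM. Of 12 lipid synthesis genes, 4 were higher and 0 lower, all in the cholesterol branch, with Sqle, squalene epoxidase, at 52.1 and 144 CPM and Msmo1 at 28.7 and 113. Of 6 chemokine and cytokine genes, 3 were higher, Il33 named above among them, with Cxcl17 at 65.1 and 577 CPM, and Cxcl1 was lower (159 and 30.8). Hp, haptoglobin, was at 175 and 1005 CPM and Wfdc2 at 2373 and 5838, whereas Lcn2 was at 2029 and 782. Of 18 genes of glutathione and peroxide defence, 3 were higher and 3 lower, with a median of 0.32. Gclc, the rate-limiting enzyme of glutathione synthesis, had the lowest ratio (315 and 80.4 CPM) and Gsr, glutathione reductase, the highest (130 and 526).

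Cell cycle genes were too low for a reading in either class. At most 2 genes of the S phase list and 2 of the G2/M list were measured in a class, and Dut was at 28.3 and 55.6 CPM in Luminal Progenitor 1.

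Across classes, 3316 genes were measured in both. Higher past the fold in both were 204, which is 54.5% of the 374 higher in Luminal Progenitor 1 and 46.7% of the 437 higher in Mature Luminal. Lower in both were 157, 48.5% of 324 and 58.4% of 269. Immediate early and heat shock genes made up 25 of the 204 and 0 of the 157. The genes of the 2 classes come from the same 2 libraries, so the classes do not replicate each other. Opposite directions were seen for 7 genes higher in Luminal Progenitor 1 and lower in Mature Luminal and 6 genes with the reverse pattern. All 12 genes with the highest ratios in Luminal Progenitor 1 were also higher past the fold on the (CPM + 10) scale in Mature Luminal, though only 7 of them reached 50 CPM there. Of the 12 with the lowest ratios, 8 were also lower there on that scale, though only 6 of the 12 reached 50 CPM there. Mt1, a second metallothionein gene, was at 2726 and 350 CPM in Luminal Progenitor 1 and at 2954 and 393 in Mature Luminal.

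The size of the difference was set apart by class for a few genes. Ly6d was at 562 CPM in hyperplasia and 132 in tumor in Luminal Progenitor 1, and at 201 and 4964 in Mature Luminal. F3, tissue factor, had a log2 ratio of -0.73 in Luminal Progenitor 1 and was at 130 and 1207 CPM in Mature Luminal. Tgm2, a transglutaminase, was at 109 and 48.4 CPM in Luminal Progenitor 1 and at 154 and 887 in Mature Luminal, and Lgals3, galectin-3, at 870 and 537 and at 435 and 2966. The tetraspanin-like gene Tm4sf1 was at 5196 and 2580 CPM and at 617 and 2924. The protease gene Prss22 was at 254 and 39.1 CPM and at 156 and 285. In the other direction, Tfap2b, an AP-2 factor, was at 9.17 and 119 CPM in Luminal Progenitor 1 and at 198 and 180 in Mature Luminal. Chka, choline kinase, was at 61.1 and 838 CPM and at 86.0 and 178. Rgs2 was at 7.39 and 68.5 CPM in Luminal Progenitor 1, opposite to its direction in Mature Luminal. These differences between classes were not tested.

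**Figure D4:**
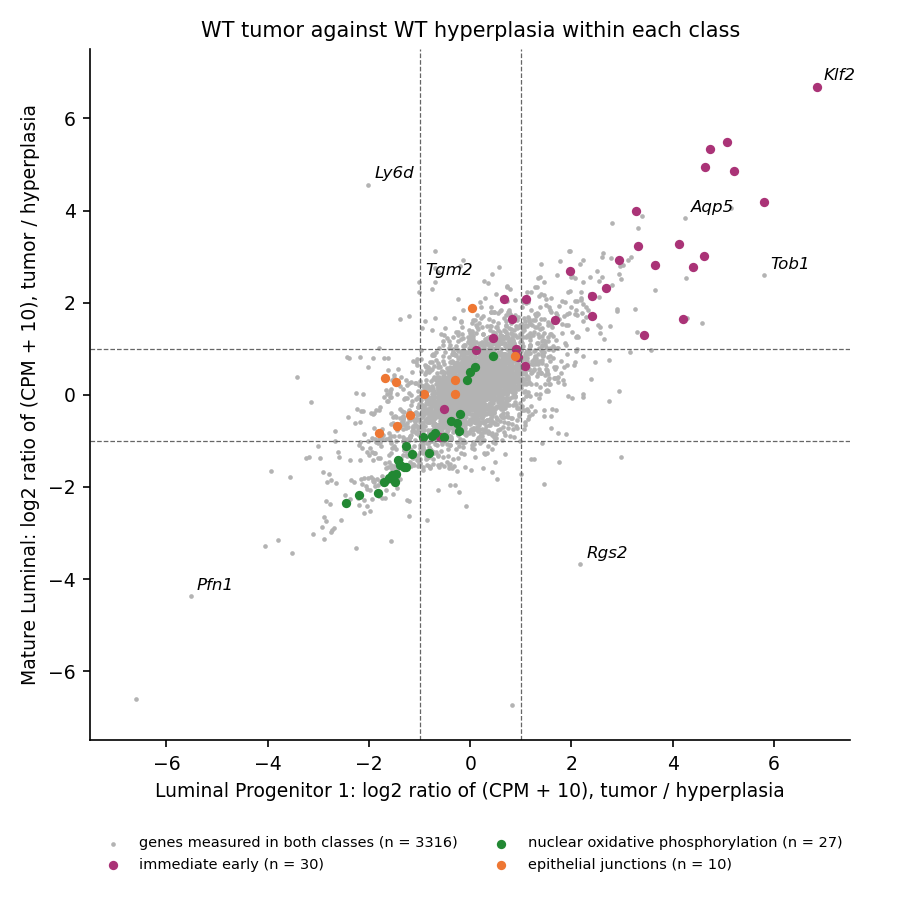
Log2 ratio of (CPM + 10), tumor against hyperplasia, in Luminal Progenitor 1 (horizontal) and Mature Luminal (vertical) for the 3316 genes measured in both, with 3 lists coloured and 2-fold marked by dashed lines. Immediate early genes lie mostly at the upper right with Klf2 farthest out, nuclear oxidative phosphorylation genes mostly at the lower left, junction genes mostly left of the centre, and Ly6d (562 and 132 CPM, then 201 and 4964) at the upper left. The unlabelled point farthest to the lower left is Rps3a3, a near copy of another ribosomal protein gene, so its count is uncertain.

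Genes of the respiratory chain encoded in the nucleus were lower in tumor in both classes. In Luminal Progenitor 1, 14 of 27 measured were lower past the fold and 0 higher (median -1.15). In Mature Luminal, 15 of 27 were lower and 0 higher (median -1.27). Over all genes measured, 10.4% were lower and 13.6% higher in Luminal Progenitor 1, and 11.1% and 13.7% in Mature Luminal. These shares also stand beside the counts that follow. Atp5e, a subunit of ATP synthase, was at 1024 CPM in hyperplasia and 217 in tumor in Luminal Progenitor 1 and at 1946 and 421 in Mature Luminal. Cox6c, of cytochrome oxidase, was at 568 and 153 CPM and at 1016 and 223, and Ndufa2, of complex I, at 799 and 239 and at 1073 and 282. Atp5b, the catalytic beta subunit, was within the fold at 687 and 936 CPM and at 789 and 1428. Of 7 measured genes of the mitochondrial genome, 0 were past the fold in Luminal Progenitor 1 (median 0.06), and 4 were lower in Mature Luminal (median -1.05), with mt-Nd1 at 13156 and 5442 CPM. The median share of mitochondrial UMIs per Mature Luminal cell was 3.80% in hyperplasia and 1.82% in tumor, against 1.69% and 1.74% in Luminal Progenitor 1. Ribosomal protein genes were lower as well. Their median was -1.28 in Luminal Progenitor 1, with 29 of 51 measured lower and 0 higher, and -1.30 in Mature Luminal, with 29 of 53 lower and 1 higher.

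Transcript length moved with these ratios. The 17 measured genes of Luminal Progenitor 1 whose longest protein-coding transcript was at most 500 bases had a median log2 ratio of -1.60, the 85 genes of 500 to 700 bases had -0.93, and the 866 genes of 2000 to 3000 bases had 0.29. The relation turned back for longer transcripts, with -0.12 over the 626 genes above 5000 bases. In Mature Luminal the same bins gave -1.81 (21 genes), -0.92 (88 genes) and 0.32 (887 genes), and -0.36 above 5000 bases (746 genes). Without ribosomal protein genes the shortest bin was at -1.42 and -1.73. Less the median of genes of like length, the median of the oxidative phosphorylation list was -0.20 in Luminal Progenitor 1 and -0.37 in Mature Luminal. The PKA pair differed less between lengths, with -0.38 and -0.53 in the shortest bin, and smaller list medians for oxidative phosphorylation (-0.30 and -0.43) and for ribosomal protein genes (-0.81 and -0.64). What sets these differences by length was not tested.

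**Figure D5:**
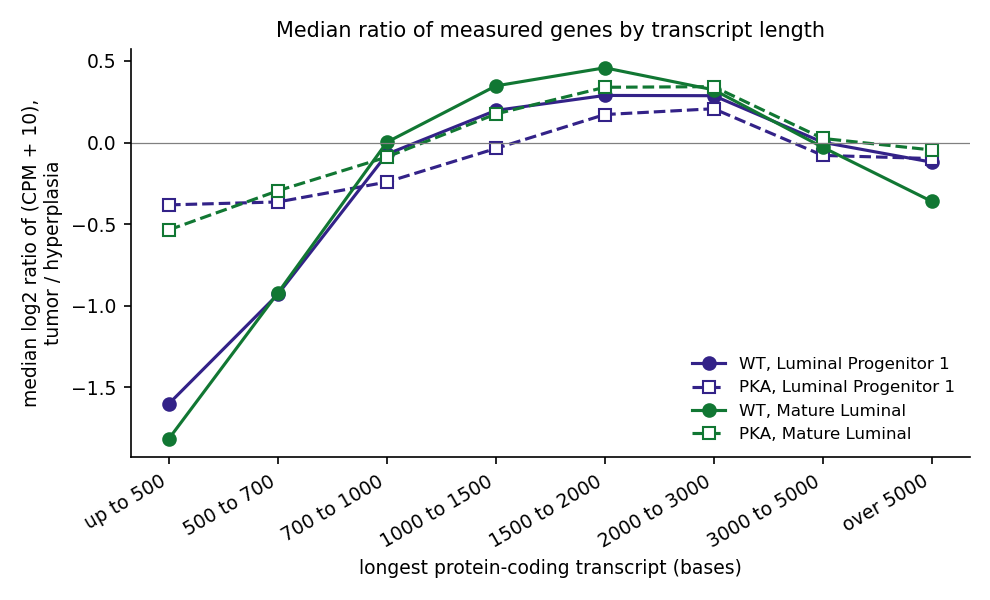
Median log2 ratio of (CPM + 10), tumor against hyperplasia, of measured genes by the length of their longest protein-coding transcript in bases, for both classes in the WT pair (filled points) and the PKA pair (open points). The WT lines start at -1.60 and -1.81 in the shortest bin, are near 0 between 700 and 1000 bases, highest between 1500 and 2000 bases and below 0 above 5000 bases, while the PKA lines start at -0.38 and -0.53.

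The PKA pair gives the same comparison in other libraries, prepared with the same 2 digestions and without shared controls. In Luminal Progenitor 1 of that pair, 11.4% of 3759 genes measured were higher past the fold and 8.33% lower. Of the WT genes that were also measured there, 304 of 447 higher (68.0%, and 78.8% of the 386 of the PKA pair) and 211 of 387 lower (54.5%, and 70.1% of 301) passed in both, with 0 and 1 in the opposite direction. All 12 genes with the highest WT ratios in this class passed the fold in the same direction in the PKA pair, with Tob1 at 18.8 CPM in hyperplasia and 502 in tumor and Cebpb at 32.3 and 715. Of the 12 lowest, 11 did, with Pfn1 at 2063 and 34.7 CPM and Csf3 at 1219 and 23.2, and Saa2 did not, at 2720 and 1382.

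Mature Luminal was less alike between the pairs. In the PKA pair, 12.2% of 4107 genes measured were higher past the fold and 4.8% lower, from 251 hyperplasia and 177 tumor cells. Of the WT genes measured there, 270 of 501 higher (53.9%, and 61.4% of 440) but 88 of 376 lower (23.4%, and 55.0% of 160) passed in both, with 9 and 11 in the opposite direction. Of the 12 highest WT ratios, 8 passed in the same direction and 1, Ly6d, in the opposite one, and of the 12 lowest 4 passed in each direction. The hyperplasia levels differed between the pairs. Calca was at 7051 CPM in Mature Luminal of WT hyperplasia and 29.0 in that of PKA hyperplasia, Wfdc12 at 3185 and 29.0, and H19 at 620 and 10.5. In reverse, Ly6d was at 201 CPM in WT hyperplasia and 6340 in PKA hyperplasia, Upk3a at 2.60 and 215, and Fgb at 20.8 and 400. The PKA tumor levels were 2.10 CPM for Calca, 3084 for Ly6d, 185 for Upk3a and 1359 for Fgb. Antigen presentation genes had a median of 0.20 in the PKA pair, with 1 of 10 higher. The epithelial junction genes of Luminal Progenitor 1 had -0.80 in that pair, with 5 of 11 lower and 1 higher. Over all genes measured in that class, 8.33% were lower and 11.4% higher.

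Each named gene was also read over all classes of both WT libraries, including the class that chose it. The counts of the genes with the highest and lowest ratios are therefore partly set by that choice. They cannot be read against the shares over all genes. Among genes measured in Luminal Progenitor 1, 17.8% were higher in every tumor class than in every hyperplasia class and 11.2% were lower. Among those measured in Mature Luminal, the shares were 16.7% and 11%. Of the 12 genes with the highest ratios in Luminal Progenitor 1, 8 had no overlap between the stages, with Tob1 at 12.5 to 33.9 CPM over the 4 hyperplasia classes and 255 to 1243 over the 4 tumor classes. Aqp5, Ptx3, Hey1 and Pgp overlapped, with Hey1 at 0 to 29.2 CPM in hyperplasia and 19.0 to 575 in tumor. Of the 12 lowest, 6 had no overlap, with Pfn1 at 1154 to 2428 CPM in hyperplasia and 29.9 to 46.6 in tumor, and the 6 that overlapped were Csf3, Csf1, Csn1s2a, Fermt1, Saa2 and Saa3. Of the Mature Luminal genes, Cited4 and Tmem238 had no overlap among the 12 highest. Upk3a had none either, but its highest hyperplasia class was at 2.60 CPM (1 UMI) and its lowest tumor class at 4.50, so that its separation rests on 1 molecule. Pfn1, Apoc1 and Mt2 had none among the 12 lowest. Of the immediate early genes, 18 of 34 measured in Luminal Progenitor 1 and 18 of 31 in Mature Luminal were higher in every tumor class.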

How the data were processed

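For each library the authors deposited 1 table of raw UMI counts (genes by barcodes) and 1 table of cells. The latter holds, as deposited, each cell's totals, its mitochondrial UMIs as a fraction and its class. Cell Ranger, STAR 2.5.3a, featureCounts (Subread 1.6.0) and the build GRCm38/mm10 are named in the submitters' processing notes. The annotation release, strand setting and doublet treatment are not given in the sources used here, and no doublet caller was run. Monocle2 and marker genes gave the classes, per the series design. Of 5179 hyperplasia and 5800 tumor barcodes, the 3808 and 5181 with a class were annotated, and the others were left out.

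UMIs were summed per library and class over genes with a row in both files and scaled to CPM (Python 3.11.15, pandas 2.3.3, NumPy 2.4.6). No test was made, since each group is 1 library. Log2 ratios carry exact conditional binomial 95% intervals, levels exact Poisson intervals and shares of cells exact Clopper-Pearson intervals (SciPy 1.17.1). UMI counting removes copies made by PCR. A class sum of 0 was bounded by 3 counts, from 0.286 to 7.81 CPM per class sum. TMM factors came from edgeR 4.0.16 as an alternative. Gene models and transcript lengths came from GENCODE M21 (GRCm38), and promoters from RefSeq (GRCm38.p6).

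The genes named in each class have the 12 highest and 12 lowest ratios on the log2 (CPM + 10) scale at 100 CPM or more in the higher library, and the 6 highest and 6 lowest differences between classes. Immediate early, heat shock, mitochondrial, ribosomal protein, haemoglobin and predicted genes, sex-linked markers and markers of other cells were left out of that ranking. Genes named from lists were examples. Mt1, and the levels set between WT and PKA hyperplasia, were chosen after their values were seen. The classes, the 39 gene lists and the rules were chosen with earlier results of these data known. Scripts were tested on simulated data.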

Additional observations from a re-analysis of the deposited data

Results flagged for a closer look

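Of the genes chosen by the naming rule and measured in both classes, 5 were past the fold in opposite directions in the 2 WT classes. Whatever the level in Luminal Progenitor 1, 2 of the 12 lowest ratios in Mature Luminal were higher past the fold there, Rgs2 and Hepacam2. Hepacam2 is not among the 5. Over all genes measured in both classes, 7 were higher in Luminal Progenitor 1 and lower in Mature Luminal, and 6 the reverse. Values are given as the log2 ratio of (CPM + 10) in Mature Luminal minus that in Luminal Progenitor 1. The difference was 6.58 for Ly6d (-2.01 in Luminal Progenitor 1 and 4.56 in Mature Luminal), 3.47 for Tgm2 (-1.02 and 2.45), 3.23 for Tm4sf1 (-1.01 and 2.23), -5.85 for Rgs2 (2.17 and -3.68) and -2.59 for Osbpl9 (1.19 and -1.40). Osbpl9, an oxysterol-binding protein gene, shares exons with an overlapping gene model.

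Within Mature Luminal, 5 named genes were past the fold in opposite directions in the WT and PKA pairs. The PKA minus WT difference of log2 ratios was -5.60 for Ly6d (4.56 in WT and -1.04 in PKA), 8.50 for Wfdc12 (-6.74 and 1.76), 4.99 for Mdk (-3.40 in WT), 4.59 for Chil1 (-3.17 and 1.42) and 4.14 for Lhfp (-3.00 and 1.14). With 1 library per group, none of these 10 differences was tested.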

How the results depend on the processing

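No paired analysis was possible because each group has 1 library. Of 56 counts of genes past the fold under alternatives, 48 stayed within 1.5 times the main count. The exceptions were the CPM minimum and the strictest choice of cells. Higher genes in Luminal Progenitor 1 (541) came to 823 at a minimum of 20 CPM and 159 at 200 CPM, and lower genes (411) to 202 at 200 CPM, where other numbers of genes are tested. Higher genes in Mature Luminal (580) came to 182 at 200 CPM and to 1023 in cells without a UMI of other classes' or non-epithelial markers, which left 248 tumor and 21 hyperplasia cells. Lower genes there (472) came to 759 at 20 CPM, 153 at 200 CPM and 1150 in those cells, where the median of the mitochondrial genome list was -1.76. Length correction, chosen after seeing the data, gave the oxidative phosphorylation medians of -0.20 and -0.37. The median of the matrix list in Luminal Progenitor 1 (1.15, 6 genes) reversed to -0.031 at 20 CPM (9 genes) and to -0.094 without overlapping genes (4 genes). Of 643 list medians under alternatives, 638 kept their direction and size. Of 628 named gene values, none reversed and 108 moved beyond their counting interval. Depth limits Mature Luminal most, where 3 hyperplasia UMIs are 7.81 CPM.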
